A study of Mus musculus with 134 samples.

Results

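The 9 genes Cldn1, Cldn3, Cldn4, Cldn7, Ocln, Marveld2, F11r, Tjp1 and Epcam, which encode claudins and their partners at the epithelial tight junction, were measured in 134 mammary tumors of the MOLF/Ei x PyMT cross. They were chosen by name: a probe set, the group of probes that reads 1 transcript on the array, was taken where the array's gene table gave it 1 symbol and that symbol was one of the 9. Each of the 9 had 1 such probe set, among 19938 genes measured in the same way. The questions were how high and how variable each gene was among the tumors, which of them varied together, and whether any tumor looked claudin-low.

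Tight junctions seal the space between neighbouring epithelial cells. Claudins are membrane proteins that polymerise into the strands of the junction, occludin (Ocln) and tricellulin (Marveld2) are related membrane proteins of the same strands, and tricellulin gathers at the corners where several cells meet. JAM-A (F11r) is an adhesion molecule of the immunoglobulin family, and ZO-1 (Tjp1) is the scaffold inside the cell that ties claudins and occludin to actin. Epcam is an epithelial adhesion molecule that binds claudin-7. In human breast cancer, the claudin-low class is known for low RNA of several claudins, occludin, Epcam and E-cadherin, together with high RNA of mesenchymal genes.

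All tumors arose in N2 females that carried the polyoma middle T oncogene, expressed in mammary epithelium under the MMTV promoter, after PyMT-positive F1 males of MMTV-PyMT and MOLF/EiJ parents had been crossed to FVB/NJ females. No treatment was given, and the frozen tumors were profiled whole. The labels name a different animal for each array, so p-values measure the spread between animals if all 134 are independent. The labels give no genotype, subtype or age, and the tumors formed 1 group. A tumor is called here by the number that opens its label.

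Values are log2 signals as deposited. Array medians lay between 6.30 and 6.54. The detection floor, set at the 95th percentile of the mean signals of 1194 genes for olfactory and vomeronasal receptors, was 5.71, and 13763 of the 19938 genes (69.0%) had a mean above it. Array quality, measured as the median absolute deviation of an array's genes from their medians over arrays, ranged from 0.0676 to 0.270. A higher value thus marks an array that lay farther from the rest. Tumor 73 stood apart, with 2662 genes more than 1 log2 unit from their median against a median of 109 genes over all tumors. The numbers of the animals restart between tumors 106 and 107, and these 2 runs of 106 and 28 tumors were compared as a technical check. Arrays 109 to 120 also resembled arrays 97 to 108 in order. Over the genes above the floor, measured as deviations from each gene's median, 8 of these 12 arrays were closest to the array numbered 12 lower (r of the 12 such pairs 0.143 to 0.907, against a median of 0.445 for the closest array of 110 others). Whether they share tissue was not tested, and if they do, the p-values are too small. Without arrays 109 to 120, no r between 2 of the 9 genes moved by more than 0.0491, and none with the gene list scores below by more than 0.056. Most correlations and counts that rest on tumor 73 are given with and without it. Tumor 73 belongs to the first run, so values within tumors 1 to 106 include it unless stated. Epithelial identity was borne out by Epcam, Cdh1 and the keratins Krt8 and Krt18, which lay above the floor in every tumor.

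The promoter windows of 5 of the genes are shown because the correlations below turn on them: Cldn3 with Cldn4 and Ocln with Marveld2, which are neighbours on chromosomes 5 and 13, and Epcam. Each window runs 5′ to 3′ from 250 bases before to 50 bases after a transcript start in RefSeq (GRCm38.p6, the reference strain, not the strains of this cross). Capitals mark CAGGTG or its reverse complement CACCTG, the letters that repressors of epithelial genes such as Zeb1 are known to bind.

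Cldn3, chr5:134985964-134986263, plus strand: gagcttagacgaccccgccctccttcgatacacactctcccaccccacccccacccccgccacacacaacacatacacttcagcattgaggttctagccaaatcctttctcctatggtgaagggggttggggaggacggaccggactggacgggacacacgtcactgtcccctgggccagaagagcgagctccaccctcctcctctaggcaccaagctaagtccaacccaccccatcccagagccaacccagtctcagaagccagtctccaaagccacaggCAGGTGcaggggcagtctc
Cldn4, chr5:134946885-134947184, minus strand: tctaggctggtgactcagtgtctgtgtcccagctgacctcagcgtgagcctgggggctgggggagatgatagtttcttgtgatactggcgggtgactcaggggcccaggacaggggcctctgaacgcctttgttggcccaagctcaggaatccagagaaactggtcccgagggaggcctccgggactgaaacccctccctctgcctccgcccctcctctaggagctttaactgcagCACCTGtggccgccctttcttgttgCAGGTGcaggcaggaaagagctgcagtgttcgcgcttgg
Ocln, chr13:100552669-100552968, minus strand: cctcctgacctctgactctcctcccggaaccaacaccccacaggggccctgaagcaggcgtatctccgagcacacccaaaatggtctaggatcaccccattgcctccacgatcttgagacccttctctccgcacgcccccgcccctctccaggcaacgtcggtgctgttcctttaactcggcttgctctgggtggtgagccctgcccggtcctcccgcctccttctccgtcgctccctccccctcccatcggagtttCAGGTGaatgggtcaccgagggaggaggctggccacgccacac
Marveld2, chr13:100616922-100617221, minus strand: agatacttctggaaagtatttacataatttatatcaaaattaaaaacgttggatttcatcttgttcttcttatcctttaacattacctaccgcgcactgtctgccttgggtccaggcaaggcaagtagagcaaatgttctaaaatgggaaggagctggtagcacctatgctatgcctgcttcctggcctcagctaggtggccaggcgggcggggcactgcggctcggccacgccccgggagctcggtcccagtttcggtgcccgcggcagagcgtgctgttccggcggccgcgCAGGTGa
Epcam, chr17:87635729-87636028, plus strand: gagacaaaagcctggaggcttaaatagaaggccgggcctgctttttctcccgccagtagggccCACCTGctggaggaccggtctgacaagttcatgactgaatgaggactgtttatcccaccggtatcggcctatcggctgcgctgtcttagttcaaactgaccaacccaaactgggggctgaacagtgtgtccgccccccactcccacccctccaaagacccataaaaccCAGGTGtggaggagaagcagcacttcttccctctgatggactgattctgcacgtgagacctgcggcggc

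At least 1 window of 7 of the 9 genes held these letters on either strand, against 22.2% of 15614 genes with a window; in the first window listed for each gene it was 6 of 9 against 19.2%. No window of Cldn1 or Tjp1 held them. A match describes the letters in this window only.

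All 9 genes were expressed in all tumors, and none fell below the detection floor in any of them. The claudins varied most. Cldn1 ranged from 7.70 through a median of 9.89 to 11.46, with a mean of 9.82 ± 0.59 (SD, n = 134), and 97.2% of the genes above the floor had a smaller SD. The tumor at the 90th percentile of Cldn1 had 2.77-fold the signal of the tumor at the 10th. Cldn4 ranged from 9.00 through 10.42 to 11.45 (10.37 ± 0.48, SD above that of 94.4% of genes), a 2.32-fold difference between the same percentiles. Both therefore spread far more than the median gene above the floor, whose SD was 0.22. Cldn3 ranged from 8.47 through 10.59 to 11.27 (10.54 ± 0.38, above 89.2% of genes) and differed 1.85-fold between the percentiles. Cldn7 was the least variable of the 4 claudins, from 8.16 through 10.19 to 10.74 (10.14 ± 0.29, above 76.6% of genes).

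By SD the other junction genes were lower, although by the median absolute deviation, scaled to an SD, Ocln (0.220) and Cldn7 (0.218) were alike. Ocln ranged from 6.29 through 8.16 to 8.73 (8.14 ± 0.28, SD, n = 134) and Marveld2 from 6.75 through 8.52 to 8.96 (8.52 ± 0.25). Epcam ranged from 9.45 through 11.26 to 11.65 (11.24 ± 0.24). In these 3 genes the 90th percentile lay between 1.36-fold and 1.46-fold above the 10th, and a single low tumor, number 73, accounted for the bottom of each range. F11r ranged from 9.21 through 10.19 to 10.63 (10.18 ± 0.19) and Tjp1 from 8.99 through 9.75 to 10.52 (9.75 ± 0.19), and only 37.7% and 35.6% of the genes above the floor had a smaller SD. Tumor 73 was the lowest of the 134 for 8 of the 9 genes. Tjp1 was the exception, with its lowest value in tumor 26 and 9.76 in tumor 73, beside a median of 9.75. Signals of different probe sets were not compared with each other.

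**Figure D1:**
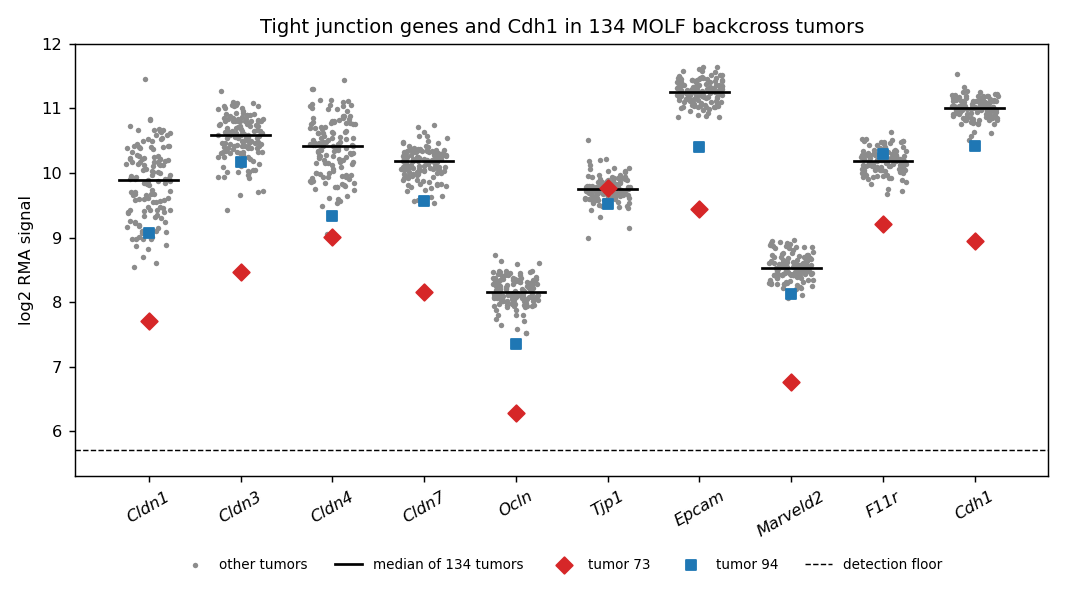
Log2 signal (y axis) of the 9 tight junction genes and of Cdh1 (x axis) in 134 tumors, 1 point per tumor, with the median as a black line and the detection floor of 5.71 dashed. Tumor 73 (diamond) lies below all others for every gene but Tjp1, and Cldn1 and Cldn4 show the widest clouds.

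Between the 2 runs of label numbers, 2 of the 9 genes differed in the fit over all genes (limma, Benjamini-Hochberg adjusted p under 0.05, which 14.4% of all genes passed, 7.7% higher and 6.67% lower in tumors 107 to 134). Cldn3 was lower in tumors 107 to 134, at 10.35 ± 0.38 (n = 28) against 10.59 ± 0.37 (n = 106), a difference of -0.24 (adjusted p = 0.0273 in limma). Marveld2 was higher there, at 8.66 ± 0.19 against 8.48 ± 0.25, a difference of 0.18 (adjusted p = 0.00991 in limma). The 2 runs overlapped widely for both genes, and both differences were called again without tumor 73 (adjusted p = 0.00487 and 0.00228). Epcam, at 11.34 ± 0.15 against 11.22 ± 0.26, did not pass in all tumors (adjusted p = 0.0860 in limma), but did without tumor 73 (0.0491) and with array quality as a covariate (0.0352). What the runs stand for is not stated, and a cause of these differences was not tested.

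The 9 genes largely rose and fell together across tumors, but much of that rested on tumor 73. A pair was called where each gene, as the covariate of a limma fit over all genes, passed an adjusted p of 0.05 for the other. Of 36 pairs, 23 were called, all positive (63.9%), where 15.6% of all genes tested in the 9 fits were called positive and 13.7% negative. The mean r over the pairs was 0.316. Without tumor 73, 13 pairs were called against a background of 12.3%, 12 of them among the 23, and the mean r was 0.186. The pairs that were not called in all tumors had r between -0.125 and 0.219.

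**Figure D2:**
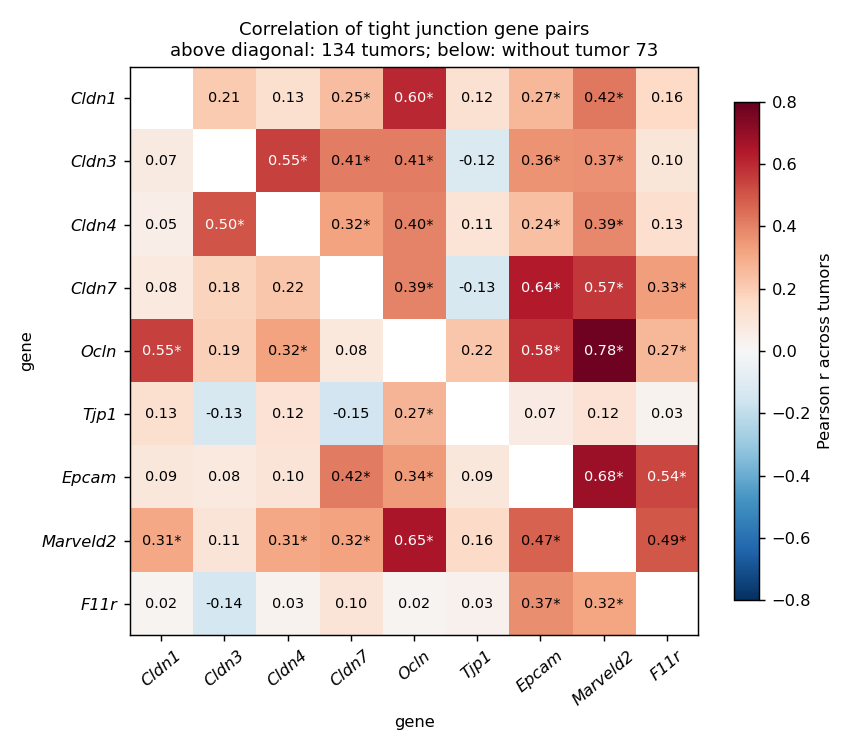
Pearson r of each pair of the 9 genes (both axes), with 134 tumors above the diagonal and 133 tumors, without tumor 73, below it. Asterisks mark called pairs: 23 above the diagonal and 13 below, with Ocln and Marveld2 at 0.78 and 0.65.

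The closest pair was Ocln and Marveld2, the strand proteins that share a MARVEL domain (r = 0.776, rho = 0.632, permutation p = 1e-05 for each, the smallest that 100000 permutations can give). The adjusted p over all genes was 4.0e-24 in limma. Leaving out the 2 tumors farthest from the median of Ocln, numbers 73 and 94, gave r = 0.639, and leaving out tumor 73 alone gave 0.654. Within tumors 1 to 106 and 107 to 134, r was 0.789 (0.643 without tumor 73) and 0.646. With scores of 7 other cell types (fibroblasts, adipocytes, muscle, endothelium, macrophages, T and B cells) as covariates and without tumor 73, the partial r was 0.611. Marveld2 was the gene most like Ocln of all 19937 others, and Ocln the gene most like Marveld2. Without tumor 73 they were at ranks 2 and 6 for each other.

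Ocln also went with Cldn1 (r = 0.605, rho = 0.526, permutation p = 1e-05 for each, adjusted p = 6.9e-12 in limma). This pair hardly moved when tumors were left out, with r = 0.548 without tumor 73, 0.549 without the 2 farthest tumors, and 0.599 and 0.585 within the runs (0.529 in the first run without tumor 73). Cldn1 and Marveld2 had r = 0.425 and rho = 0.293, and 0.311 without tumor 73. With Cldn3, Cldn4, Cldn7, Tjp1, Epcam and F11r, Cldn1 had r of at most 0.268 in all tumors, and none of these pairs was called without tumor 73. Without tumor 73, the most variable claudin was thus called with the 2 MARVEL proteins and with no other claudin; whether these correlations differ from each other was not tested.

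Among the claudins, Cldn3 and Cldn4 were the closest pair (r = 0.546, rho = 0.471, permutation p = 1e-05 for each, adjusted p = 3.0e-09 in limma). Their r was 0.502 without tumor 73, 0.480 without the 2 farthest tumors, and 0.569 and 0.499 within the runs (0.520 in the first run without tumor 73). Among all 19937 other genes, Cldn4 was at rank 331 for Cldn3 and Cldn3 at rank 37 for Cldn4. Without tumor 73 these ranks were 527 and 58. Cldn7 was tied to Epcam, the protein it binds (r = 0.637, rho = 0.413, permutation p = 1e-05 for each, adjusted p = 4.6e-13 in limma). That r fell to 0.415 without tumor 73 and was 0.655 and 0.613 within the runs (0.401 in the first run without tumor 73). It was the 1 pair called in tumors 107 to 134 alone (adjusted p = 0.0384 in limma, where 3.65% of the genes in the 9 fits were called positive). Tumors 1 to 106 alone, with tumor 73 among them, gave 26 pairs against a background of 14.4%. The fits of that run were not made without tumor 73.

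Epcam went with Marveld2 (r = 0.682, rho = 0.457, 0.473 without tumor 73, 0.702 and 0.363 within the runs) and with F11r (0.537, 0.424, 0.371, 0.519 and 0.531 in the same order). In the first run without tumor 73, r of these pairs was 0.449 and 0.313. F11r and Marveld2 had r = 0.494 and rho = 0.307, and 0.316 without tumor 73. Marveld2, Ocln, Epcam and Cldn7 each had 7 partners among the other 8 genes in all tumors. Without tumor 73, Marveld2 had the most, with 6, and Ocln, Epcam and Cldn7 had 5, 4 and 2.

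Tjp1, the scaffold, was called with 0 of the other 8 genes in all tumors (limma; 1 of the 8 at an unadjusted permutation p under 0.05 of r, and 1 by rho). Its r ranged from -0.125 with Cldn7 to 0.219 with Ocln. Without tumor 73 its pair with Ocln was called (r = 0.273, rho = 0.169, adjusted p = 0.0190 in limma). The scaffold gene thus stood outside the called pairs in all tumors.

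**Figure D3:**
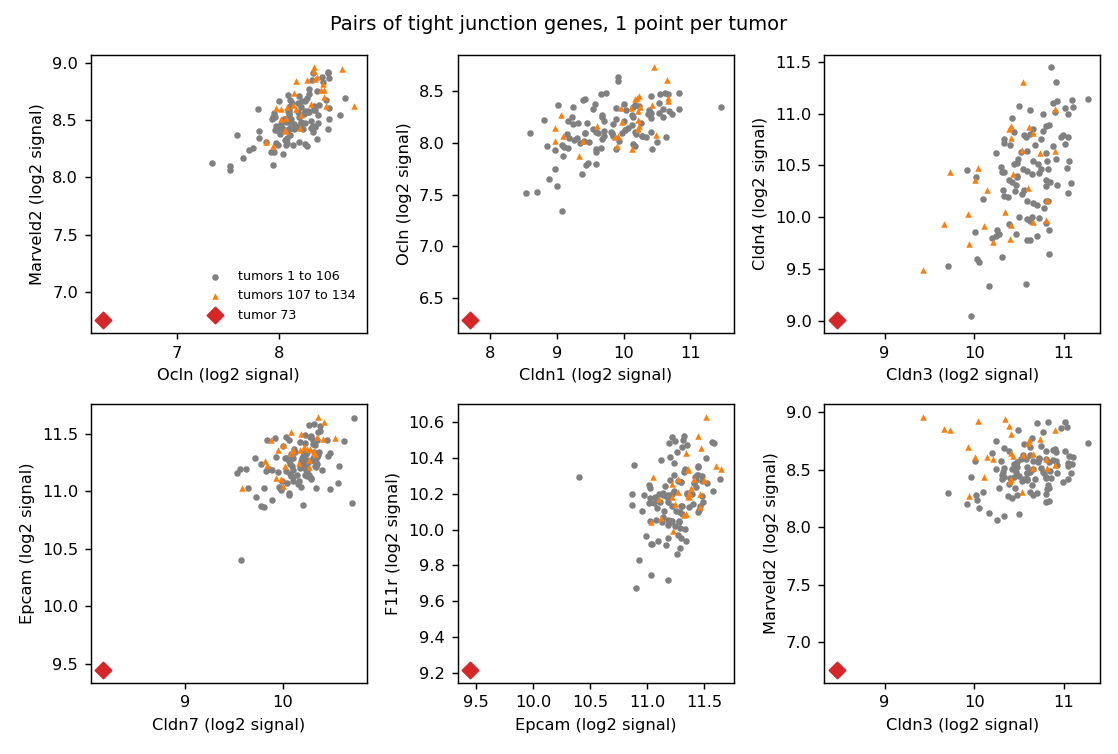
Log2 signals of 6 pairs of genes, 1 point per tumor, with circles for tumors 1 to 106, triangles for tumors 107 to 134 and a diamond for tumor 73. Ocln and Marveld2 rise together in both runs (r = 0.789 and 0.646), whereas Cldn3 and Marveld2 do so in tumors 1 to 106 only (r = 0.629 and -0.249). Without tumor 73, r in tumors 1 to 106 is 0.643 and 0.402 for these pairs.

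Some pairs had r of opposite sign in the 2 runs. In tumors 107 to 134, 14 of the 36 pairs had a negative r, against 2 in tumors 1 to 106 with tumor 73 among them. Without tumor 73, F11r in tumors 1 to 106 also had a negative r with Cldn1 (-0.0563), Cldn3 (-0.00602) and Ocln (-0.0309). Over all genes, the median r of the 9 fits lay between -0.106 and 0.0906 in tumors 107 to 134. In tumors 1 to 106 it lay between -0.0275 and 0.0494, so negative r were common among all genes in both runs. Cldn3 with Marveld2 had r = 0.629 in the first run (0.402 without tumor 73) and -0.249 in the second. A test of the difference in slope (an interaction term in limma) called 3 of the 36 pairs, all with Cldn3, where 5.22% of all genes in the 9 fits were called, and 2 pairs without tumor 73 (4.66%). These shares count single fits, whereas a pair needed both of its fits, and whether the counts differ from them was not tested. Array quality also moved with several genes. Over 134 arrays its r with a gene was lowest for Cldn3 (-0.442, permutation p = 1e-05, with rho = -0.196, p = 0.0228) and Epcam (-0.437, p = 2e-05, with rho = -0.255, p = 0.00258), among 9 such relations computed. Both genes were thus lower on arrays farther from the rest. Without tumor 73 these r were -0.342 and -0.308. With tumor 73 included, both were negative within each run. For Ocln and Marveld2, r was -0.385 and -0.367 in all tumors, and -0.250 and -0.218 without tumor 73. It was -0.516 and -0.541 in tumors 1 to 106, tumor 73 included, but 0.363 and 0.483 in tumors 107 to 134. The first run was not computed without tumor 73 here. With run and array quality as covariates, 19 pairs were called, and 13 when tumor 73 was left out too. Beyond that, the part of run and quality in the correlations was not tested.

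Close pairs were also neighbours in the genome in 2 cases. Ocln and Marveld2 on chromosome 13, and Cldn3 and Cldn4 on chromosome 5, had 0 measured genes between them. Some genes of other function beside them correlated as well, without tumor 73: Slc30a5, a zinc transporter, with Marveld2 (r = 0.60), Rad17, a DNA damage checkpoint gene, with Ocln (0.50), and Bud23 and Abhd11 with Cldn3 (0.55 and 0.51). The median r of Ocln with its 20 nearest measured genes was 0.245, and that of Marveld2 was 0.189, whereas for the other 7 genes it lay between -0.0283 and 0.0869. The animals of a backcross differ in inherited chromosome segments, and genotypes were not analysed here, so a shared segment and shared regulation cannot be told apart. Tjp1, on chromosome 7, stood out by its nearest genes in pattern: 4 of the 5 genes most like it lie on chromosome 7 (Iqgap1, Phrf1, Hnrnpul1 and Dock1, r = 0.61 to 0.63, and 0.61 to 0.68 without tumor 73), as did 27 of the 100 most like it, against 8.72% of all genes.

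The genes most like each of the others over 134 tumors were few junction genes. Cldn1 was most like Tc2n (r = 0.75, and 0.72 without tumor 73), then Dusp16 and Ica1 (0.66 each, 0.62 and 0.63 without it). Cldn3 was most like Kdf1, a keratinocyte differentiation factor (0.79, and 0.74 without tumor 73), with the luminal keratin Krt8 at rank 3 (0.74, and 0.69 without it, when it was not among the 5 closest). Cldn4 was most like Cdc25a, a phosphatase that drives the cell cycle (0.64, and 0.61 without tumor 73), and the replication helicase subunit Mcm2 was at rank 3 (0.62, and 0.59 at rank 4 without it). The highest-ranking genes of Cldn4 thus included genes of cell division. Cldn7 was most like Cyb561 (0.65) with Epcam at rank 4 (0.64), but without tumor 73 these r were 0.47 and 0.42, Epcam was at rank 66, and Slc25a28 was first (0.54). Epcam was most like Atp6ap2, an accessory subunit of the proton pump (0.77, and 0.67 without tumor 73), and F11r most like Marcksl1 (0.64 and 0.54), both also first without it. For Marveld2, the epithelial splicing regulator Esrp1 was at rank 3 (0.75), but it had r = 0.56 and was not among the 5 closest without tumor 73, when Pex7 was first (0.72).

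Other genes of the cell junctions followed the 9 in part. A gene was counted where at least 5 of the 9 fits called it in 1 direction, as 11.0% of all other genes were positive and 9.87% negative. Of 26 measured genes of adherens junctions and epithelial identity, 16 were positive and 0 negative, with a median of their median r of 0.26 (all other genes -0.01). Among them were Cdh1 (E-cadherin), Esrp1 and Esrp2 (splicing regulators of epithelium), Klf5 (an epithelial transcription factor) and Ap1m2 (a subunit of the epithelial sorting adaptor), positive in 8 or 9 of the 9 fits each, and in 4 each without tumor 73. Without tumor 73, 4 of the 26 genes, none of these 5, met the count (background 3.73% positive, 3.27% negative). Most of the shared variation with this list thus involved tumor 73. Of 11 desmosome genes, 5 were positive and 0 negative, and 0 in either direction without tumor 73.

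Of 35 other tight junction genes, 14 were positive and 6 negative, and 3 and 1 without tumor 73. Marveld3, another MARVEL protein, and the polarity kinase Prkcz were positive in 7 fits each, and in 6 and 5 without tumor 73. The polarity kinase Prkci was positive in 8 (4 without tumor 73), Patj, a polarity scaffold, in 7 (4) and Lsr, which recruits tricellulin to cell corners, in 7 (2). On the negative side, Mpdz, a scaffold related to Patj, was called in 7 fits (6 without tumor 73), Jam3, whose mean of 5.31 lay below the floor, in 8 (4) and Esam, an adhesion molecule of endothelium, in 6 (1). The list thus held genes of both directions.

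Of 19 other claudin genes measured, 14 of them above the floor, 3 were positive in at least 5 fits (Cldn2, Cldn8 and Cldn23) and 3 negative (Cldn15, Cldn19 and Cldn22, the last with a mean below the floor, at 5.31), and 0 in either direction without tumor 73. Cldn5, the claudin of endothelium, was negative in 4 fits, with and without tumor 73. Of all other genes, 11.0% were positive and 9.87% negative in at least 5 fits, and 3.73% and 3.27% without tumor 73. The other claudins were thus called in both directions, and whether their counts differ from these shares was not tested.

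Scores of 16 other gene lists, each the mean z-score of the genes of a list, were set against the 9 genes, which gave 144 relations in all. In bulk tumors, fewer cells of a type and less RNA per cell cannot be told apart. Of the 144, 28 were called positive and 36 negative, and 14 and 13 without tumor 73. By ranks, 12 and 7 were called, of which 12 and 5 were among these.

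Genes of mesenchyme and of its regulators (Vim, Zeb1, Zeb2, Twist1, Cdh2 and others, 12 genes) ran against the junction genes most widely: 8 of 9 were called negative (17.6% of all genes were), and 5 without tumor 73 (7.83%), namely Cldn4, Cldn7, Ocln, Epcam and Marveld2. By ranks 3 were called: Cldn4, Cldn7 and Marveld2. The strongest was Marveld2 (r = -0.562, rho = -0.335, permutation p = 1e-05 and 0.00011, adjusted p = 5.0e-11 in limma). Its r was -0.408 without tumor 73, -0.372 without the 2 farthest tumors, and -0.628 and -0.413 within the runs. Cldn7 had r = -0.544 and rho = -0.367, -0.389 without tumor 73, and -0.638 and 0.0374 within the runs. Tumors with more mesenchymal RNA had less RNA of these genes, and Tjp1 was the 1 gene of the 9 not called in all tumors. Of the 12 single genes, 8 were negative in at least 5 fits and 5 without tumor 73; Zeb1, a repressor of epithelial genes, was negative in 8 fits (6 without tumor 73) and Twist1 in 8 (5).

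Scores of endothelium and adipocytes were each negative with 7 of 9 genes (22.2% and 19.6% of all genes). Without tumor 73 these counts were 2 (Cldn7 and Epcam, 10.3%) and 3 (Cldn7, Ocln and Epcam, 9.88%). Skeletal muscle was negative with 5 (13.6%), fibroblasts with 2 (11.1%) and myoepithelium with 5 (3.91%), and without tumor 73 with 0 (6.15%), 0 (5.35%) and 1 (Ocln, 1.63%). By ranks, 0 of the 9 genes were called with any of these 5 scores, whereas with run and array quality as covariates fibroblasts were negative with 7 (1 without tumor 73). The share of such cells was not measured. T cell and B cell scores were called with 0 of the 9 genes, with and without tumor 73 (2.45% of all genes were called positive and 0.125% negative for T cells, 2.16% and 0.0301% for B cells; without tumor 73, 2.78% and 0.231%, and 2.36% and 0.0753%). At an unadjusted permutation p under 0.05, 0 of 9 relations with the T cell score and 0 with the B cell score passed by r, and 0 and 1 by rho. The macrophage score was positive with 4 genes (17.8%), and with Cldn3 and Ocln without tumor 73 (17.9%), but with 0 when run and array quality were covariates.

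Luminal keratins (Krt7, Krt8, Krt18 and Krt19) were positive with 7 of the 9 genes (18.6%), and with Cldn3, Cldn4 and Ocln without tumor 73 (17.8%). They were 3 by ranks and 4 with run and array quality as covariates. Cldn3 stood out (r = 0.649, rho = 0.512, permutation p = 1e-05 for each, adjusted p = 1.9e-14 in limma). Its r was 0.582 without tumor 73, 0.546 without the 2 farthest tumors, and 0.622 and 0.703 within the runs (0.507 in the first run without tumor 73). Marveld2 was 1 of the 7 (r = 0.211, and -0.0162 without tumor 73), but in tumors 107 to 134 alone it was called negative (r = -0.492, adjusted p = 0.0339 in limma), against 0.445 in tumors 1 to 106. In tumors 107 to 134, Cldn3 and Tjp1 were called positive (adjusted p = 0.000708 and 0.0374 in limma). Among all 19934 genes tested with this score in that run, 3709 were called negative and 2711 positive. The desmosome score was positive with 6 genes (16.9%, 2 by ranks), and with Cldn3 and Cldn4 without tumor 73 (13.7%). Basal keratins (Krt5, Krt14, Krt15 and Krt17) were positive with 2 genes (13.5%), and with Cldn4 alone without tumor 73 (12.6%). For Cldn4, r was 0.486 and rho 0.499 (permutation p = 1e-05 for each, adjusted p = 2.1e-07 in limma), 0.459 without tumor 73, and 0.469 and 0.577 within the runs. Cldn4 was called with neither keratin score in tumors 107 to 134 alone (adjusted p = 0.141 for luminal and 0.118 for basal keratins in limma).

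Proliferation (10 mitotic genes such as Mki67 and Top2a) was positive with 7 of 9 genes (21.8%, 3 by ranks), and without tumor 73 with 5: Cldn4, Ocln, Tjp1, Epcam and Marveld2 (21.4%). Cldn4 had r = 0.517 and rho = 0.439 (permutation p = 1e-05 for each, adjusted p = 1.3e-09 in limma), 0.479 without tumor 73, and 0.532 and 0.563 within the runs. Ocln had r = 0.609 and rho = 0.292, but 0.386 without tumor 73, and 0.664 and 0.0137 within the runs. For Epcam, r was 0.531 in all tumors and 0.210 without tumor 73, so much of this relation rested on 1 tumor.

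Cldn1 was called with 7 of the 16 scores in all tumors. Without tumor 73 it was called with 2, positively with milk proteins (r = 0.297 in all tumors and 0.286 without tumor 73, 0.322 and 0.171 within the runs; the milk score was positive with 2 of the 9 genes, 6.97% of all genes, and 1 without tumor 73, 7.66%) and negatively with salivary gland genes. For the latter, r was -0.363 and rho -0.466 (permutation p = 2e-05 and 1e-05, adjusted p = 0.00288 in limma), -0.404 without tumor 73, and -0.337 and -0.470 within the runs. It was the 1 gene of the 9 called with the salivary score, Ocln being called too by ranks (1.17% of all genes were called negative, 1.29% without tumor 73). The hypoxia score was called with Marveld2 alone, negatively (r = -0.235, rho = -0.297, and -0.279 without tumor 73, where 9.21% of all genes were called negative, 10.1% without tumor 73), and with none when tumors 109 to 120 were left out.

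**Figure D4:**
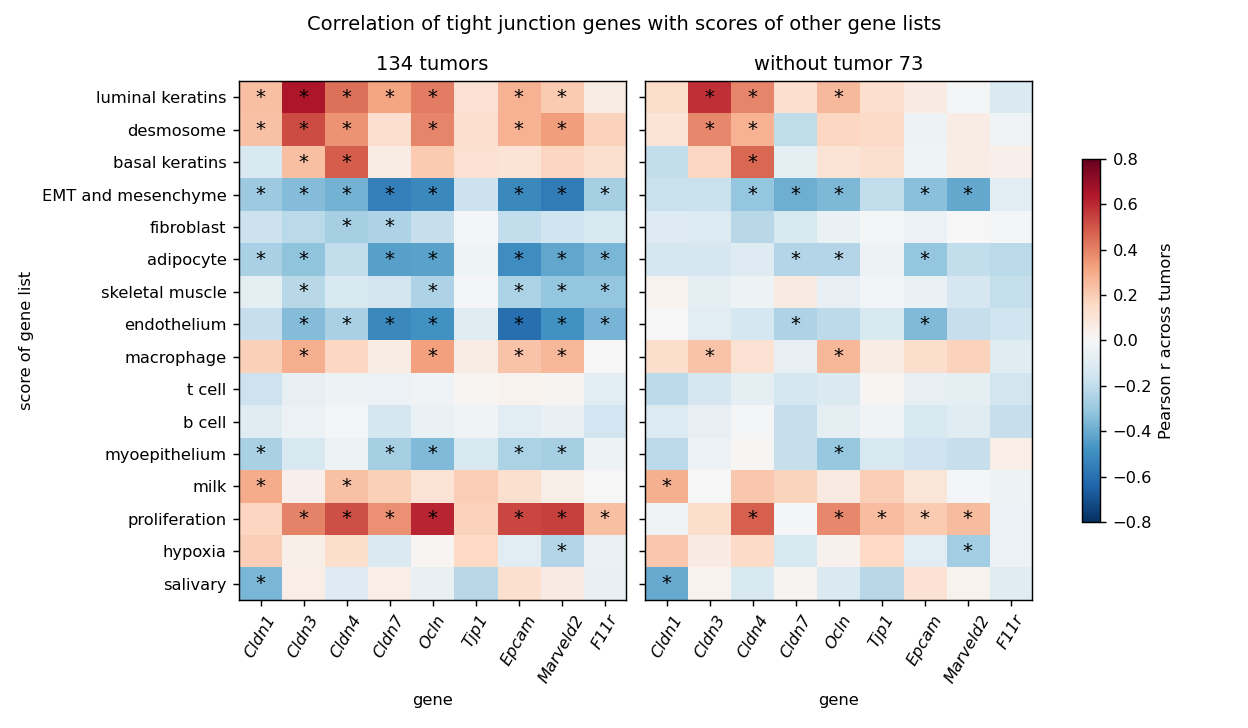
Pearson r (colour) of the 9 genes (x axis) with the scores of 16 gene lists (y axis) in 134 tumors and without tumor 73. Asterisks mark called relations, 28 positive and 36 negative in all tumors and 14 and 13 without tumor 73; Cldn3 with luminal keratins, Cldn4 with basal keratins and proliferation, and Cldn1 with salivary genes are called in both panels.

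By the rule used here, 1 tumor looked claudin-low. A gene counted as low in a tumor when it lay more than 1 log2 unit below its median, and a tumor looked claudin-low when at least 4 of Cldn3, Cldn4, Cldn7, Ocln, Epcam and Cdh1 were low. Tumor 73 had 6 of 6 low genes. In 4 other tumors, numbers 2, 21, 94 and 134, 1 gene was low, and in the remaining 129 tumors none was. These 4 were low in Cldn4 or, in tumor 134, in Cldn3.

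In tumor 73, Cldn1 was 7.70 (4.54-fold below the median), Cldn3 8.47 (4.35-fold), Cldn7 8.16 (4.09-fold) and Cldn4 9.00 (2.67-fold). Ocln was 6.29 (3.66-fold below), Epcam 9.45 (3.52-fold), Marveld2 6.75 (3.40-fold) and F11r 9.21 (1.97-fold), and Cdh1 was 8.94 (4.17-fold). For Cldn3, Cldn7, Ocln, Epcam, Marveld2 and Cdh1, tumor 73 lay well outside the other 133 tumors, whose lowest values were 9.43, 9.53, 7.34, 10.40, 8.06 and 10.42. For Cldn4, tumor 73 was close to the next lowest tumor at 9.05. In all, 7 of the 9 genes lay more than 1 log2 unit below the median in tumor 73, as did 6.09% of all genes, and 0 lay more than 1 log2 unit above it, as did 7.26% of all genes; the rule chose the tumor by these genes, so this count is a description. All 9 genes were still above the detection floor there.

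The loss reached beyond the tight junction. Of epithelial genes, Esrp1 was 5.02-fold, Rab25 (a vesicle traffic protein of epithelium) 4.78-fold and Prss8 (prostasin, a membrane protease) 4.02-fold below the median, each the lowest of 134. The keratins Krt8 and Krt18 were 10.56 and 9.52, below all other tumors, whereas Krt19 at 9.42 was near its median of 9.63. Of 12 genes of mesenchyme and its regulators, 5 were more than 1 log2 unit above the median and 0 as far below. Their score of 3.11 was the highest of 134. Their summed unlogged signal, 8487, lay within the 2543 to 10293 of the other tumors. Zeb2 was 9.25, 2.41 log2 units above its median, Zeb1 9.17 (2.35 above) and Twist1 7.35 against a median of 5.87, each the highest of 134. Vim, at 12.08, was 0.88 above its median, and 6 tumors were higher. Proliferation was low, with 10 of 10 genes more than 1 log2 unit below the median and a score of -6.60 against -2.63 or more elsewhere.

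Genes of other tissues were high in tumor 73 at the same time. Of the 8 endothelial genes, 8 were more than 1 log2 unit above the median, and their summed unlogged signal was 5615 against 933 to 3329.6 in the other tumors. The same held for 7 of 7 adipocyte genes (20488 against 451 to 15383) and 8 of 8 skeletal muscle genes (50597 against 747 to 27637). Pecam1 and Cdh5 (endothelium), Adipoq and Plin1 (adipocytes), and Acta1 and Ckm (muscle) were each the highest of 134. Fibroblast genes were high too, 6 of 9 by more than 1 log2 unit, whereas macrophage genes were not (0 of 8 high and 3 low) and T cell genes stood at the bottom of their range. Array quality was 0.249 for this tumor, exceeded by 1 array of the 134. The tumor closest to tumor 73 in profile was number 61 (r = 0.812), where scores of adipocytes, muscle and endothelium were 3.78, 2.92 and 3.68. There, Cldn1 was 8.54, the lowest of the other 133, and Cldn3 was 10.33, 0.26 below its median. Ocln (7.52), Marveld2 (8.10), F11r (9.83), Epcam (10.92), Cldn7 (9.89) and Tjp1 (9.45) were also below their medians in tumor 61. Cldn4, at 10.76, was above its median of 10.42. The part of these tissues and of array quality in the low junction genes was not tested.

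With a limit of 0.5 log2 units, or of 2 SD below the mean of a gene, tumor 94 also met the rule. It had 5 of the 6 genes more than 0.5 log2 units below the median: Cldn4 at 9.33 (-1.09 from the median), Epcam at 10.40 (-0.86), Ocln at 7.34 (-0.81), Cldn7 at 9.57 (-0.62) and Cdh1 at 10.42 (-0.59). Of the 9 junction genes 5 were past this limit, as were 9.57% of all genes in that tumor, and 1 (Cldn4) was more than 1 log2 unit below, as were 1.78%. Cldn3, at 10.17 (-0.42), was not past it, and F11r, at 10.29, was above its median of 10.19. In tumor 94, adipocyte genes (7 of 7) and endothelial genes (7 of 8) were more than 1 log2 unit above the median, and Zeb2 was 9.01 against a median of 6.85, but the skeletal muscle score was the lowest of all tumors. Its array quality was 0.228. Tumors 55 and 79 had 3 of the 6 genes past 0.5 log2 units, and 98 tumors had 0.

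**Figure D5:**
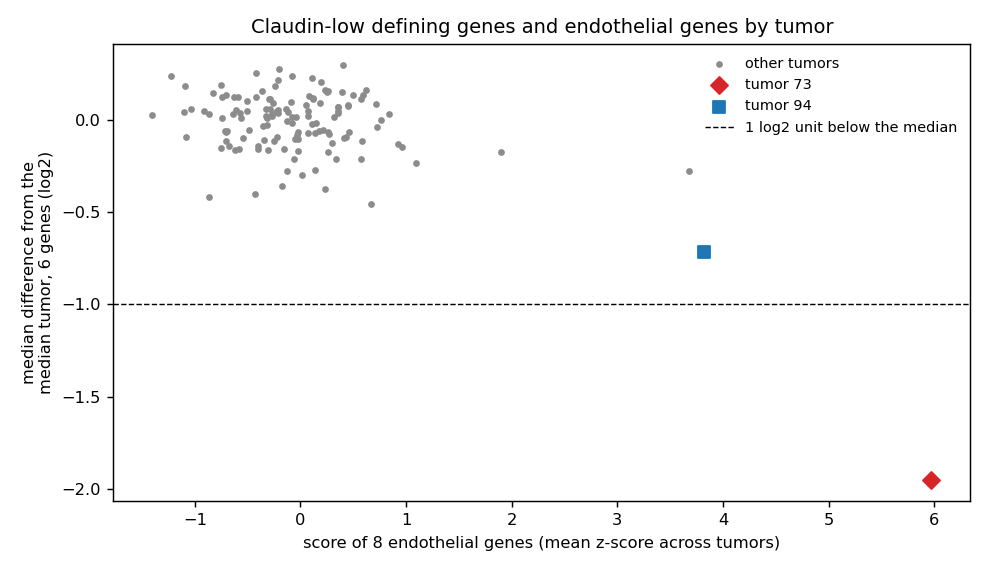
Median difference of Cldn3, Cldn4, Cldn7, Ocln, Epcam and Cdh1 from their medians (y axis, log2 units) against the score of 8 endothelial genes (x axis, mean z-score), 1 point per tumor. Tumor 73 lies far below the dashed line at 1 log2 unit under the median, with an endothelial score of 5.97, and tumor 94 lies between it and the remaining tumors.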

How the data were processed

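Total RNA of 134 mammary tumors, each from a different animal by the labels, was hybridised to Affymetrix Mouse Gene 1.0 ST arrays. The authors deposited log2 values from RMA (version not given in the sources used here), 1 per probe set, and these were used without further normalization. RMA quantile-normalizes arrays against each other, so a shift shared by most genes of an array is removed, and values near the background are compressed. The number of arrays limits the precision. Of 35556 probe sets, 21789 had 1 gene symbol, 1621 several and 12146 none in the array's gene table; 21698 of the first matched RefSeq (GRCm38.p6). This gave 19938 genes, each read from its probe set with the highest mean (999 genes had several).

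Each of the 9 genes, and each list score, was the covariate of a limma fit over all other genes, with Benjamini-Hochberg adjustment over all of them and a threshold of 0.05. Genes of a list were left out of the fit on its score. A pair was called where both of its fits passed. Pearson's r and Spearman's rho were tested with 100000 permutations, 2-sided, for 36 pairs, 144 relations with scores and 9 with array quality. Runs of label numbers were compared with limma, and slopes between runs with an interaction term. The fits were tested on simulated data. The lists were claudin-low markers, other claudins, other tight junction genes, adherens junction and epithelial genes, desmosomes, luminal and basal keratins, mesenchyme and its regulators, endothelium, adipocytes, fibroblasts, macrophages, skeletal muscle, B and T lymphocytes, myoepithelium, milk, proliferation, hypoxia and salivary gland. Genes named are the 9, Cdh1, the 5 genes most like each of the 9, up to 5 per direction of each related list called in the most fits, and examples of the lists; the chromosome neighbours were chosen after their values were seen. The 9 genes and the lists were chosen with earlier results of these data known.

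Alternatives were ranks, averaged probe sets per gene, quantile normalization once more, covariates for run, array quality or other cell types, tumor 73 or tumors 109 to 120 left out (arrays that resembled 97 to 108 in order), each run alone, dim genes left out, other claudin-low limits and, for the spread of a gene, the median absolute deviation. Combinations with tumor 73 left out, and the related lists and slopes without it, were added after seeing the data. R 4.3.3 with limma 3.58.1 were used for the fits, and pandas 2.3.3, numpy 2.4.6, scipy 1.17.1 and matplotlib 3.10.9 in Python 3.11.15 for the rest.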

Additional observations from a re-analysis of the deposited data

Results flagged for a closer look

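The slope of 3 genes on Cldn3 differed between the 2 runs of label numbers by a test of the difference itself (an interaction term in limma, adjusted over all genes, in both fits of a pair; 18.5% of all genes were called for Cldn3). For Marveld2 the difference in slope between tumors 107 to 134 and tumors 1 to 106 was -0.552 (adjusted p = 0.00444), from a slope of 0.429 in the first run to -0.123 in the second. Without tumor 73 it was -0.368 (adjusted p = 0.0214, 7.21% of all genes called for Cldn3). For Epcam the difference was -0.513 (adjusted p = 0.0155), and -0.303 without tumor 73 (adjusted p = 0.0566). For F11r it was -0.300 (adjusted p = 0.0343), and -0.154 without tumor 73 (adjusted p = 0.379). Without tumor 73 the slope of Tjp1 on Cldn3 differed instead, by 0.343 (adjusted p = 0.0346). What sets the runs apart was not tested.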

How the results depend on the processing

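No paired analysis was possible because the tumors formed 1 group and the labels give no shared replicate numbers. Of 36 pairs of genes, 23 were called. The count was 14 by ranks, 13 with scores of other cell types as covariates, 13 without tumor 73 and 1 in tumors 107 to 134 alone, and it was 12 by ranks, 13 with run and array quality and 12 with cell type scores as covariates when tumor 73 was also left out. With quantile normalization once more, 19 pairs were called. The luminal keratin and macrophage scores were then positive with 4 and 1 of the 9 genes, and the desmosome score with 6 as before. Relations with scores were called positive 28 times. These were 12 by ranks, 17 with run and array quality as covariates, 14 without tumor 73 and 6 in tumors 107 to 134, and 12 by ranks and 11 with run and quality without tumor 73. Relations were called negative 36 times, and 7, 13 and 1 times by ranks, without tumor 73 and in tumors 107 to 134, of which 5, 13 and 0 were among the 36, and 6 times by ranks and 16 with run and quality without tumor 73. Genes of the related lists called in at least 5 fits went from 40 to 7 (positive) and from 17 to 6 (negative) without tumor 73. The number of tumors that looked claudin-low rose from 1 to 2 with a limit of 0.5 log2 units and with a limit of 2 SD. Slopes that differed between the runs went from 3 pairs to 2 without tumor 73. In tumors 107 to 134 alone, r turned negative for Cldn7 and Ocln (-0.00171), Cldn3 and Ocln (-0.0157), Cldn3 and Cldn7 (-0.209), Cldn3 and Marveld2 (-0.249), Cldn4 and Cldn7 (-0.251), Cldn3 and Epcam (-0.298) and Cldn4 and Epcam (-0.496). Without tumor 73, it did so for Ocln and F11r with run and quality (-0.0135) or cell type scores (-0.00312) as covariates, and for Cldn3 and Epcam with cell type scores (-0.00479). Among 24 pairs, 216 of 335 alternative values kept direction and side of the threshold, and 84 kept the direction but were no longer called. The cause was not tested, except that tumors 107 to 134 alone are 28 tumors and have less power. Averaging the probe sets of a gene changed no value of the 9 genes, since each has 1 probe set.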
